A study of Macaca mulatta with 32 samples.

Results

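The circular RNAs (circRNAs) of 10 host genes best known for making them in brain were followed through 32 libraries of rhesus macaque brain. The 10 genes were HIPK3, HIPK2, CDYL, HOMER1, TULP4, RTN4, STAU2, CSNK1G3, ANKRD17 and MAN1A2. Their circRNAs were all rows of the deposited table whose gene symbol was one of these names, 97 of 52828 circRNAs, and they came from 8 of the 10 genes. STAU2 had 28, MAN1A2 20, HOMER1 16, TULP4 13, CDYL, HIPK2 and CSNK1G3 6 each, and RTN4 2. ANKRD17 had no row under its symbol, but 8 rows carried its gene ID (ENSMMUG00000000790) in the symbol's place. These 8 were added by that ID and are counted apart from the 97. No row carried the symbol or the gene ID of HIPK3, so its circRNAs were not analysed here.

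A circRNA forms when the spliceosome joins the downstream end of an exon (the donor) back to the upstream end of the same or an earlier exon (the acceptor). The circle lacks free ends, which makes it resistant to exonucleases such as RNase R and long-lived in cells that do not divide. Neurons are rich in circRNAs, and many of the genes that give rise to them code for proteins of the synapse, of chromatin or of signalling.

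The libraries covered 8 brain regions: prefrontal (PFC), posterior cingulate (PCC), temporal (TC), parietal (PC), occipital (OC) and cerebellar cortex (CB), the CA1 field of the hippocampus and the dentate gyrus (DG). Healthy monkeys of 10 and 20 years were used, 8 animals in all. Each library pooled RNA of 2 animals of the same age and sex, so that every region had 4 libraries, named here by age and sex (10F, 10M, 20F, 20M), and the 4 pools recurred in all 8 regions. Tissue pieces hold neurons and glia in unknown proportion, and fewer cells of a type cannot be told apart from less RNA per cell.

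The values, which the authors call TPM, were back-splice read counts multiplied by a constant for each library, so they carry no correction for length and can be set side by side between circRNAs. The libraries held 18813 to 894932 back-splice reads (median 179118), and 1 read was worth 0.288 to 18.7 TPM. Where a circRNA is at 0, a floor of 3 reads was used as the limit that a count of 0 allows, which covers counting error only. The smallest value above 0 was 2 reads, so a value of 0 can also stand for 1 read. The floor does not cover that case and is then too low. The 5 libraries with over 95% clean reads in the study's sample table (PFC 20F, PCC 20F, PC 10M, CA1 20M and DG 20M) were deeper, with a median of 430956 reads against 166099 in the rest. Circular RNAs of 5 of 7 listed genes of cerebellar neurons summed to 48.4 to 112 TPM in the CB libraries and to 0 to 77.9 TPM elsewhere. Those of 3 of 5 oligodendrocyte genes (MBP, MOBP, MOG) had a mean of 28.4 TPM in CA1 and of 9.09 TPM or less in every other region. Those of 4 astrocyte genes (GFAP, AQP4, SLC1A2, SLC1A3) were at 0 in all 4 CB libraries, with means of up to 23.4 TPM elsewhere. Of 3 microglia genes only DOCK8 had circRNAs, at 6.01 TPM in 1 CB library, and PROX1, the listed marker of dentate granule cells, had none.

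For 1 of these circRNAs, that of TULP4 spanning chr4:104504373-104523041 on the minus strand, the study's divergent primer pair is printed to show which junction was read. Such primers point away from each other on the linear gene and amplify only across the back-splice. They are given 5′ to 3′, and the build of the coordinates, here and throughout, was not given in the sources used here.
TULP4 forward: ttgtcctggttggttctgtca
TULP4 reverse: cacacgaatatgcctccatcc

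The 97 circRNAs together had 40885 back-splice reads, 0.571% of the 7159279 in the table. Most of these reads lay in a few circles, since the 10 most abundant held 87.8% of them. A median member had 26 reads against 14 over all circRNAs, and 26 members (26.8%) had more than 100 reads against 14.1% of all. Of the members, 44 (45.4%) were seen in 1 library alone, as were 55.1% of all circRNAs. Only 1 of them, that of CDYL, was above 0 in all 32 libraries, among 65 such circRNAs in the table. The authors annotated 74 members (76.3%) as exonic and 23 as intronic. The low-count filter of the study kept 47 of the 97 (48.5%) and 17050 circRNAs in all (32.3%). Together with 2 of ANKRD17, 49 circRNAs entered the tests.

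CDYL, a chromodomain protein that acts in transcriptional repression, gave the most abundant circRNA of the set. It spanned chr4:4766091-4766757 on the plus strand, annotated as exonic with 667 bases between its ends, and ranked 36th among all circRNAs with 18156 reads. Its level was 434 ± 326 TPM (mean ± SD, n = 32), with a lowest value of 96.3 TPM in CA1 20F, a median of 334 TPM and a highest value of 1482 TPM in PFC 20F. It held 98.4% of the 18458 reads of its host (95% exact binomial interval 98.2% to 98.5%). Across libraries the share ran from 86.2% in TC 10M to 100%. Among the 2837 hosts with 5 or more circRNAs, whose leading circRNA held 49.5% at the median, that share stood at the 99.6th percentile. The other 5 circRNAs of CDYL had 109 reads or fewer.

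MAN1A2, a mannosidase that trims N-glycans in the Golgi, spread its 11041 reads over 20 circRNAs. Its rows carry a gene ID (ENSMMUG00000021685) that the table of gene names used here does not list, and that table gives MAN1A2 another ID, so the assignment rests on the symbol in the deposited table. The leading circRNA, chr1:120368310-120386868 on the plus strand, had 5392 reads in 30 libraries, 48.8% of the host. The next had 2126 reads (chr1:120425793-120431644, 19.3%) and shared no end with the first. MAN1A2 thus made circles from separate stretches of the gene, with 7 of the 20 starting at the acceptor at position 120368310 and holding 76.1% of the reads. Those 7 reached between 3472 and 128268 bases downstream.

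HOMER1, a scaffold protein of the excitatory postsynapse, had 5114 reads in 16 circRNAs. Its leading circRNA lay at chr6:75664580-75683702 on the minus strand and had 3423 reads in 29 libraries, 66.9% of the host. The acceptor at position 75683702 was used by 5 circRNAs with 85.0% of the reads. STAU2, a double-stranded RNA-binding protein that carries RNAs into dendrites, had 4933 reads in 28 circRNAs. Its leading circRNA at chr8:76179668-76196996 on the minus strand had 2454 reads in 28 libraries (49.7%). The circRNA at chr8:76179668-76217728, which joins the same donor to an acceptor further upstream, had 466 reads in 25 libraries (9.45%). The acceptor at position 76196996 was shared by 10 STAU2 circRNAs with 60.02% of the reads, and the donor at 76179668 by 4 with 69.6%.

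Sharing of ends was the rule in the set. Of the 97 circRNAs, 82 (84.5%) had an end in common with another circRNA of their host, against 73.2% over all hosts. The median host had 3 circRNAs, and this comparison was not matched for the number of circRNAs per host. Over the 2837 hosts with 5 or more circRNAs, the most used acceptor held 60.3% of a host's reads at the median and the most used donor 57.6%. Among the 4 abundant hosts the most used acceptor held between 60.02% (STAU2) and 99.4% (CDYL). Among the rarer hosts with 5 or more circRNAs it held 89.1% in CSNK1G3, 51.1% in ANKRD17, 50.8% in HIPK2 and 38.2% in TULP4. The most used donor held 98.95% in CDYL, 78.5% in HOMER1, 69.6% in STAU2 and 49.4% in MAN1A2. In the same rarer hosts that donor held 92.9% (CSNK1G3), 56.5% (ANKRD17), 52.2% (TULP4) and 50.8% (HIPK2).

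**Figure D1:**
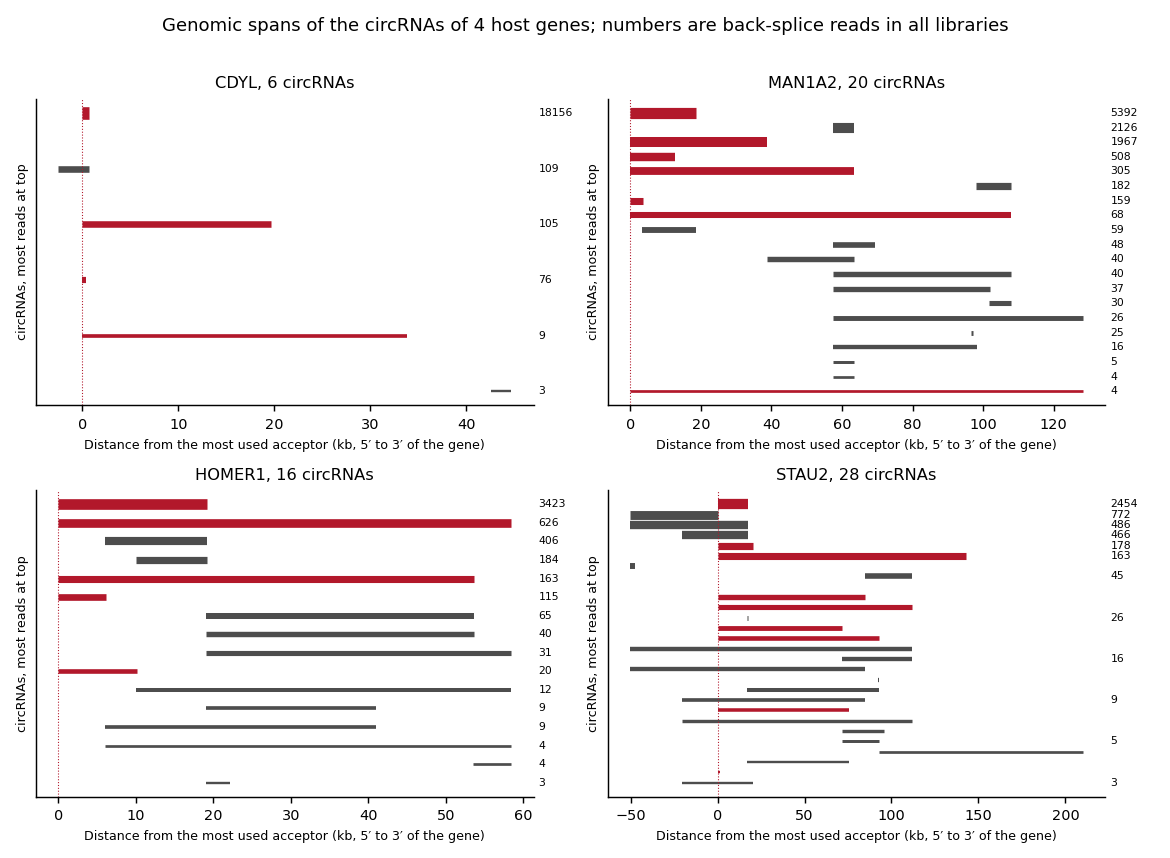
Genomic span of every circRNA of CDYL, MAN1A2, HOMER1 and STAU2, drawn along the direction of transcription as distance (kb) from the acceptor with most reads (dotted line); red bars start at that acceptor, thicker bars have more reads, and the numbers at the right are back-splice reads over 32 libraries (given for some of the 28 STAU2 circRNAs). CDYL is nearly all 1 short circle of 18156 reads, while MAN1A2, HOMER1 and STAU2 share acceptors among 7, 5 and 10 circRNAs.

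The other 5 hosts were rare. CSNK1G3, a casein kinase 1 of the gamma group, had 567 reads, of which 473 (83.4%) came from chr6:119937864-119949709 on the plus strand, seen in 18 libraries. TULP4, a tubby-like protein, had 531 reads, and no circRNA of it dominated. Its leading circRNA, the target of the primers above, had 159 reads in 13 libraries (29.9%), and the next, chr4:104475924-104479176, had 120 in 9 (22.6%). A TULP4 circRNA of 4 reads, counted here, lay on the plus strand, opposite to the others of the host. ANKRD17, a protein of ankyrin repeats, had 186 reads, with 95 from chr5:56450907-56507488 in 8 libraries and 46 from chr5:56528056-56532801 in 4. RTN4, the reticulon known as Nogo, had 180 reads, of which 178 came from chr13:55274997-55280459 on the minus strand in 5 libraries. HIPK2, a homeodomain-interacting protein kinase, had 61 reads in 9 libraries, 31 of them from chr3:177211661-177212744 on the minus strand in 6 libraries. Among all 8026 hosts, the order by reads put CDYL 44th, MAN1A2 75th, HOMER1 204th, STAU2 212th, CSNK1G3 1595th, TULP4 1656th, ANKRD17 2948th, RTN4 2994th and HIPK2 4514th.

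The level of a host was taken as the sum of the TPM of its circRNAs in a library. CDYL, MAN1A2, HOMER1 and STAU2 were above 0 in all 32 libraries. CDYL had the most reads of the 8 hosts in 20 libraries, MAN1A2 in 9 and HOMER1 in 3. TULP4 was found in 24 libraries, CSNK1G3 in 19, ANKRD17 in 16, HIPK2 in 9 and RTN4 in 6. The 97 circRNAs made up between 0.172% and 1.05% of the back-splice reads of a library. Between 6 (CA1 20F) and 31 (PFC 10M) of them were seen in a library. The 5 libraries with over 95% clean reads had a median of 17 members and the others 18.

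**Figure D2:**
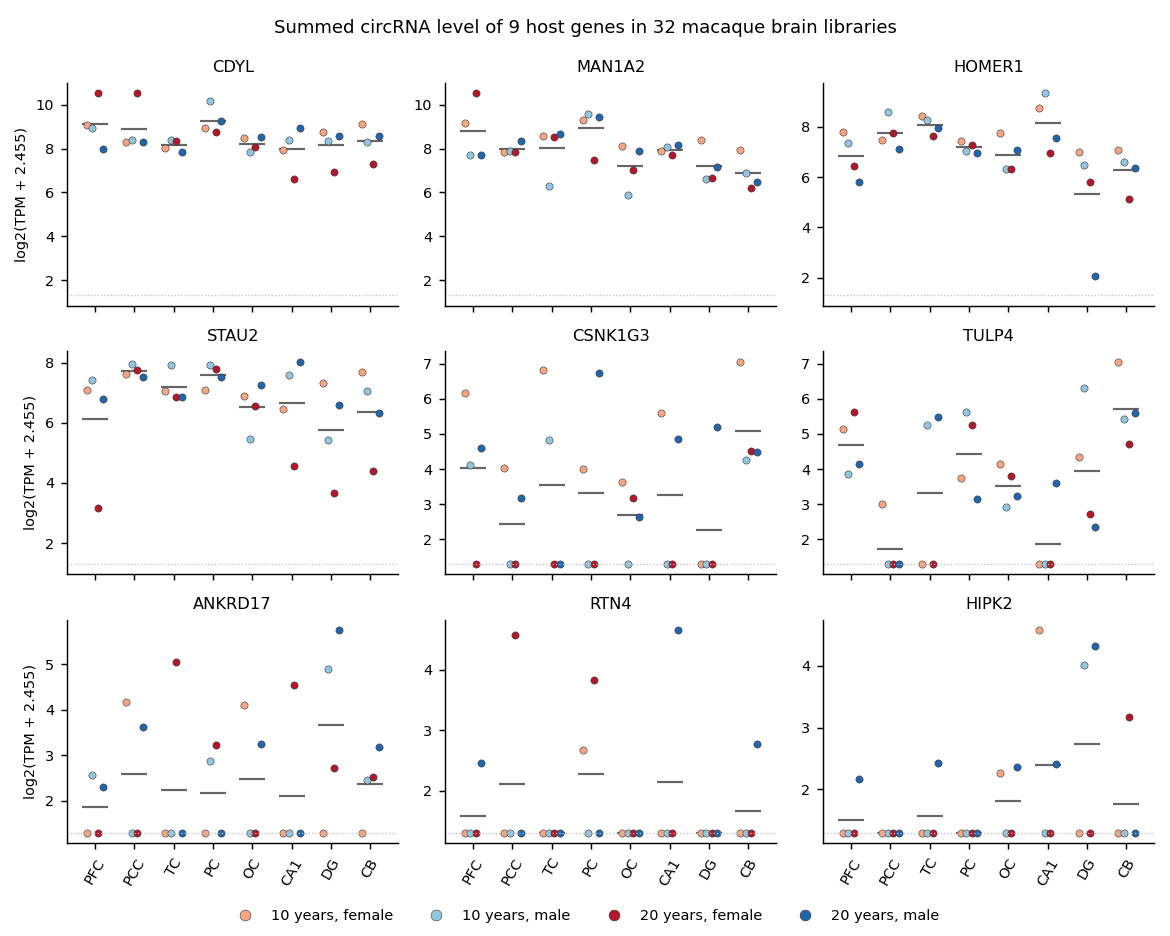
Summed circRNA level of each host, as log2(TPM + 2.455), in each library by region, coloured by age and sex of the pool; grey bars are means of 4 libraries and the dotted line marks 0 TPM. The 4 abundant hosts are above 0 everywhere, whereas CSNK1G3, TULP4, ANKRD17, RTN4 and HIPK2 sit on the dotted line in 13, 8, 16, 26 and 23 libraries.

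Which regions had most of each host was asked by setting the 4 libraries of a region against the other 7 regions, with limma on log2(TPM + 2.455) across all 17050 circRNAs and, for summed levels, across 4895 hosts. None of the 49 member circRNAs passed an adjusted p of 0.05 in any region. The share of all circRNAs called was 0.211% in PFC, 0.111% in PCC, 0.17% in TC, 0.563% in PC, 0.0235% in OC, 0.158% in CA1, 0.158% in DG and 2.4% in CB. At an unadjusted p under 0.05, 31 of the 392 member tests passed (7.91%), against 7.6% of all tests. None of the 9 hosts passed either, against a background of 0.306% of hosts in PFC, 0.0613% in PCC, 0.225% in TC, 0.306% in PC, 0.0204% in OC, 0.327% in CA1, 1.1% in DG and 5.25% in CB. At an unadjusted p under 0.05, 11 of 72 host tests passed (15.3%), against 8.12% of all. Weighting recovered reads with voom called 1 circRNA of 392 tests and 3 hosts of 72, where 0.387% of all circRNA tests and 1.8% of all host tests passed. An exact permutation test on TPM at an unadjusted p under 0.01 called 4 circRNAs of 392 tests and 2 hosts of 72, where 1.1% of all circRNA tests and 1.9% of all host tests passed. By region that rule called 0.545% of circRNAs in PFC, 0.733% in PCC, 1.05% in TC, 1.29% in PC, 0.452% in OC, 0.733% in CA1, 0.575% in DG and 3.42% in CB. Of hosts it called 0.695% in PFC, 1.27% in PCC, 1.92% in TC, 2.1% in PC, 0.286% in OC, 1.41% in CA1, 0.899% in DG and 6.6% in CB.

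**Figure D3:**
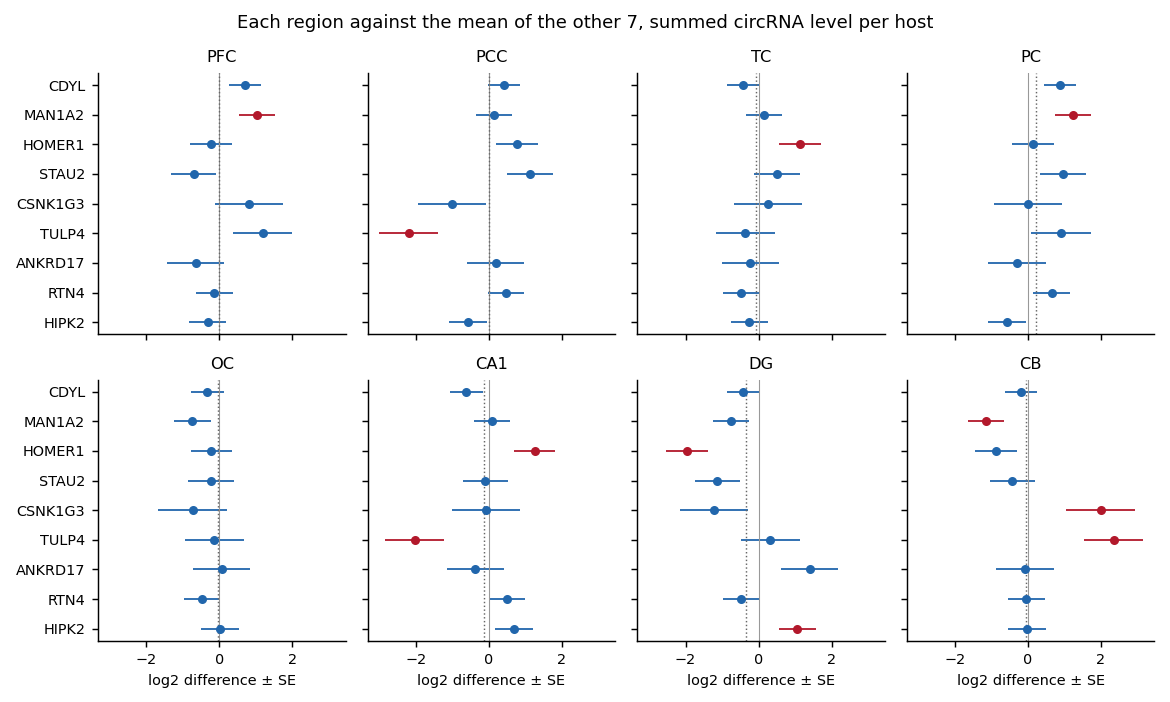
Difference in log2(TPM + 2.455) of each host's summed level of the region named above each panel from the mean over the other 7, with its standard error (limma, 4 libraries per region). Red points have an unadjusted p under 0.05 (11 of 72), none has an adjusted p under 0.05, and the dotted line is the median over 4895 hosts.

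Among hosts found in every library, HOMER1 had the widest range of regional means, 5.17-fold from DG to CA1, before MAN1A2 with 4.82-fold from CB to PFC. In CA1 its summed level was 427 TPM in 10F, 651 in 10M, 121 in 20F and 187 in 20M. The mean was 346 ± 242 TPM (n = 4) against 150 ± 90.6 TPM (n = 28) in the other regions, and both 10-year libraries lay above all libraries of other regions. This difference had an exact permutation p of 0.00893, a rule that 1.41% of hosts passed in CA1, while limma gave a log2 difference of 1.25 ± 0.57 (SE) and an adjusted p of 0.650. The oligodendrocyte genes, also highest in CA1, summed to 0 to 47.3 TPM in its 4 libraries, and their part in the result was not tested.

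The leading HOMER1 circRNA was also higher in CA1, at 263 ± 157 TPM against 86.7 ± 67.9 TPM elsewhere (exact permutation p = 0.00228, a rule that 0.733% of circRNAs passed). After CA1, mean summed levels were 271 ± 64.8 TPM in TC, 227 ± 107 in PCC, 144 ± 22.3 in PC, 130 ± 74.6 in PFC, 125 ± 64.2 in OC, 84.4 ± 40.8 in CB and 67.0 ± 52.7 in DG. Neighbours in this order differed by less than the larger of their standard deviations. In DG, HOMER1 had 126, 86.4, 53.4 and 1.76 TPM in 10F, 10M, 20F and 20M, the last being 2 reads in a library of 273137. The log2 difference of DG from the other regions was -1.97 ± 0.57 (adjusted p = 0.0794), where the median host differed by -0.35. Without pool 20M it was -0.99. With the pool as a block its adjusted p was 0.0488.

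In PCC, the leading circRNA of HOMER1 was at 0 in 2 of 4 libraries. These were 10F and 20M, although the host had 126 and 42 reads there. The floor of 3 reads would be 2.38% and 7.14% of them, and the limit is higher if a value of 0 hides 1 read. The second HOMER1 circRNA, chr6:75625287-75683702, which uses the same acceptor and was named after its values were seen, had 77.3 TPM in 10F, 162 in 10M, 0 in 20F and 88.6 in 20M. Its mean in PCC was 82.0 ± 66.4 TPM against 20.2 ± 20.6 TPM elsewhere (exact permutation p = 0.00286, a rule that 0.733% of circRNAs passed). The single PCC library without it, 20F, is among the 5 with over 95% clean reads.

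STAU2 had its highest mean in PCC, with 195, 248, 215 and 184 TPM in 10F, 10M, 20F and 20M. All 4 values lay above the mean of every other region except that of PC. The mean was 210 ± 27.97 TPM against 125 ± 72.5 TPM (exact permutation p = 0.0256), and limma gave a log2 difference of 1.12 ± 0.62 with an adjusted p of 0.759. PC followed with 194 ± 46.1 TPM, and DG was lowest with 75.4 ± 64.1 TPM. In PC the second STAU2 circRNA, chr8:76196837-76247184, was at 42.4 ± 25.6 TPM against 15.8 ± 13.7 TPM (exact permutation p = 0.00481, a rule that 1.29% of circRNAs passed). In PCC the circRNA chr8:76176787-76196996 was at 15.3 ± 16.3 against 2.41 ± 4.79 TPM (exact permutation p = 0.00923). Both were named after their values were seen.

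The STAU2 circRNA at chr8:76179668-76217728 had means of 28.7 TPM in TC and 25.9 TPM in PCC, and of 4.24 TPM in CB. It was above 0 in all 4 libraries of PFC, PCC, TC and PC, and in 1 library of DG. Its highest single value lay in CA1, at 76.4 TPM in 10M, with 13.3 TPM in 20M and 0 in 10F and 20F. In OC it lay between 0 and 9.71 TPM.

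The highest single values of MAN1A2 and CDYL came from libraries among the 5 with over 95% clean reads. MAN1A2 reached 1499 TPM in PFC 20F, against 206 to 578 TPM in the other PFC libraries. CDYL reached 1482 TPM in PFC 20F, 1502 in PCC 20F and 1138 in PC 10M, and between 96.3 and 605 TPM in the 29 other libraries. In CA1 20M and DG 20M, which belong to the same 5, CDYL had 492 and 384 TPM. The part of these libraries' processing in the levels was not tested.

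MAN1A2 was lowest in CB, with 243, 114, 70.6 and 87.9 TPM in 10F, 10M, 20F and 20M. The log2 difference of CB was -1.15 ± 0.50 (adjusted p = 0.207), and it was -1.41 with an adjusted p of 0.0444 when all libraries were scaled to an equal total of reads. In PC its levels were 636, 762, 178 and 695 TPM (log2 difference 1.24 ± 0.50, adjusted p = 0.395).

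TULP4, at 21.3 ± 27.9 TPM over all libraries, had its highest mean in CB. There the 4 libraries held 131, 40.6, 23.9 and 46.2 TPM (10F, 10M, 20F, 20M), and all lay above the overall mean. The mean of 60.4 ± 48.0 TPM compared with 15.8 ± 19.5 TPM in the other regions (exact permutation p = 0.00748, a rule that 6.6% of hosts passed in CB). The limma log2 difference was 2.34 ± 0.81 with an adjusted p of 0.0756. The circRNAs of cerebellar neuron genes were also highest and those of astrocyte genes at 0 in CB, and their part in the result was not tested. The value of CB 10F was 7 reads in the shallowest library. Without it the difference was 1.89 ± 0.91 (adjusted p = 0.337). Without the 5 libraries with over 95% clean reads it was 2.43 ± 0.70 (adjusted p = 0.0446).

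In PCC and CA1, TULP4 was at 0 in 3 of 4 libraries each, the exceptions being 5.62 TPM in PCC 10F and 9.80 TPM in CA1 20M. Its leading circRNA was at 131, 15.0, 14.1 and 0 TPM in the 4 CB libraries and at 0 in all 8 libraries of PCC and CA1.

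The rarest hosts allowed no order of regions. RTN4 had 21.4 TPM in PCC 20F, 22.8 in CA1 20M, 11.8 in PC 20F and 4.40 or less in the other 3 libraries where it was seen. Its leading circRNA was at 0 in all libraries of TC, OC, DG and CB. HIPK2 exceeded 10 TPM in CA1 10F (21.3), DG 20M (17.6) and DG 10M (13.6). ANKRD17 reached 51.0 TPM in DG 20M and 27.3 in DG 10M, and had a mean of 20.6 ± 23.5 TPM in DG against 4.62 ± 7.55 TPM elsewhere (exact permutation p = 0.0177). The 2 named circRNAs of ANKRD17 were never seen in the same library. They were seen in 8 and 4 of 32 libraries, too few to show that they exclude each other. A level of 0 in CB 10F, where 3 reads are worth 56.2 TPM, says little of hosts at these levels.

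Whether the circRNAs changed between 10 and 20 years was tested over 16 libraries against 16, with region and sex in the model. Libraries of a pool come from the same animals, and with 2 pools per age an exact test over pools cannot go below p = 0.333. None of the 49 circRNAs passed an adjusted p of 0.05, where 0.00587% of all circRNAs did, and 2 (4.08%) had an unadjusted p under 0.05, against 4.55% of all. None of the 9 hosts passed, where 0.0204% of all hosts did, and 2 (HOMER1 and RTN4, 22.2%) had an unadjusted p under 0.05, against 6.39% of all. With voom, 0 circRNAs and 0 hosts passed. The rule of the study, an unpaired test of means on TPM at p under 0.05, called 1 circRNA, where it called 2.97% of all circRNAs, and 1 host, where it called 4.88% of hosts.

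The host was HOMER1. At 10 years its lowest, median and highest levels were 77.6, 174 and 651 TPM, and at 20 years 1.76, 122 and 242 TPM. The 2 ages overlapped, but within region and sex the 20-year library was lower in 14 of 16 pairs, 7 of 8 in females and 7 of 8 in males. The exceptions were PCC in females and OC in males. Means were 231 ± 155 TPM at 10 years and 118 ± 68.4 TPM at 20 years (n = 16 each). The limma log2 difference, 20 minus 10 years, was -1.10 ± 0.36 with an adjusted p of 0.625, and the median host differed by 0.03.

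The circRNA called by the study's rule was the second of HOMER1, chr6:75625287-75683702, at 40.4 ± 40.2 TPM at 10 years and 15.5 ± 24.2 TPM at 20 years. It was lower at 20 years in 12 of 16 pairs, and the leading HOMER1 circRNA in 13 of 16. For CDYL, MAN1A2 and STAU2 the 20-year library was lower in 9, 9 and 11 of 16 pairs. STAU2 had a log2 difference of -0.77 ± 0.40 (adjusted p = 0.793), CDYL of -0.14 ± 0.29 and MAN1A2 of -0.02 ± 0.33. RTN4 was seen in 5 of 16 libraries at 20 years and in 1 of 16 at 10 years. Of these 5, PCC 20F and CA1 20M hold the most back-splice reads of all libraries.

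**Figure D4:**
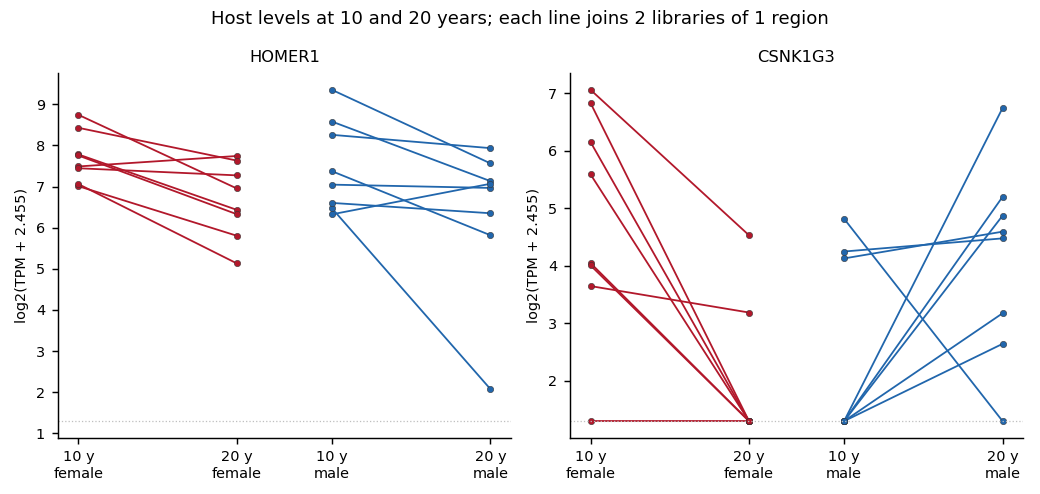
Summed circRNA level of HOMER1 and CSNK1G3 as log2(TPM + 2.455) at 10 and 20 years in females (red) and males (blue); each line joins the 10-year and the 20-year library of 1 region, and the dotted line marks 0 TPM. HOMER1 lines fall in 14 of 16 pairs, while CSNK1G3 lines fall in 7 of 8 female pairs and rise in 7 of 8 male pairs.

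No member differed between the sexes at an adjusted p of 0.05, at the level of circRNAs (background 0.0176%) or of hosts (background 0%). At an unadjusted p under 0.05, 2 of 49 circRNAs (4.08%, against 4.68% of all) and 0 of 9 hosts passed (6.44% of all), and voom called 0 of each. The study's rule on TPM, rerun here, called 1 circRNA, where it called 2.94% of all, and 0 hosts, where it called 4.25%. The circRNA was chr1:120368310-120381060 of MAN1A2, at 6.27 ± 7.74 TPM in males and 19.9 ± 21.4 TPM in females. It was named after its values were seen.

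CSNK1G3 differed between the ages in opposite directions in the pools of the 2 sexes. In pool 10F its lowest, median and highest levels were 0, 29.9 and 131 TPM, with 7 of 8 libraries above 0. That highest level was 7 reads in CB 10F, the shallowest library. In pool 20F they were 0, 0 and 20.6 TPM, with 2 of 8 above 0. In pool 10M they were 0, 0 and 25.7 TPM, with 3 of 8 above 0, and in pool 20M 0, 20.7 and 105 TPM, with 7 of 8 above 0. In females the 20-year library was lower in 7 of 8 regions and equal in 1, and in males it was higher in 7 of 8, TC being the exception.

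The difference between the sexes in the age difference, males minus females, was 4.56 ± 1.13 on the log2 scale for CSNK1G3, with an unadjusted p of 0.000135 and an adjusted p of 0.132. It was not called, as were none of the 9 hosts (background 0.0817%) and none of the 49 circRNAs (background 0.0645%). At an unadjusted p under 0.05, 3 hosts (33.3%, against 6.07% of all) and 4 circRNAs (8.16%, against 4.75% of all) passed, and voom called 0 of each. Besides CSNK1G3 these hosts were MAN1A2 (1.29 ± 0.64) and STAU2 (1.58 ± 0.78), each with a limma adjusted p of 0.813. MAN1A2 was lower at 20 years in 7 of 8 female pairs and higher in 6 of 8 male pairs. STAU2 was lower in 6 of 8 female and 5 of 8 male pairs. Each combination of age and sex was 1 pool of 2 animals, so these patterns cannot be told apart from a difference between the pools. With an estimated correlation within pools, which was -0.04 for hosts, the adjusted p of CSNK1G3 was 0.00679. The negative correlation narrowed the standard error from 1.13 to 0.94, so this fit is not a stricter check on pools.

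How a host divides its reads among its circles was compared through the leading circRNA's share, over libraries with 10 or more host reads. For HOMER1 the share had a median of 59.3% and ran from 0 to 100% over 30 libraries. For MAN1A2 it ran from 0 to 73.3% around a median of 43.2% in 32 libraries, and for STAU2 from 0 to 80.4% around 54.4% in 28. By contrast CDYL stayed at 86.2% or more. In CA1 the pooled share of HOMER1's leading circRNA was 84.8% (95% exact interval 82.5% to 87.0%) and ran from 71.0% to 91.1% in the 4 libraries. In CB it was 36.8% over all 4 libraries (50 of 136 reads, interval 28.7% to 45.5%), with 0 to 46.0% in the 3 libraries that had 10 or more reads. The fourth, CB 10F, had 7 reads of HOMER1, all from the leading circRNA. These intervals cover the counting of reads and not the spread between libraries.

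The leading circRNA of MAN1A2 was at 0 in CA1 10M and DG 10M, where the host had 73 and 21 reads. That of STAU2 was at 0 in CB 20F, where the host had 17 reads, and that of HOMER1 at 0 in CB 20F with 30 host reads. The leading circRNAs of STAU2 and HOMER1 were thus both at 0 in CB 20F.

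Of CDYL, MAN1A2, HOMER1 and STAU2, the only members with enough reads in 24 libraries, none changed its share in a region at an adjusted p of 0.05 (limma on the log2 ratio of leading to other reads). Nor did any by age or sex. The ratio of HOMER1 in PCC had the lowest adjusted p of the 4 in any region, with a log2 difference of -3.996 ± 1.33 (SE) from the other regions and an adjusted p of 0.442. The background was 0.127% of 789 hosts in PC and in DG and 0% in the other 6 regions, and 0% of 823 hosts for age and for sex. At an unadjusted p under 0.05, 3 of 32 region tests passed (9.38%, against 7.51% of all) and 0 of 8 by age or sex.

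**Figure D5:**
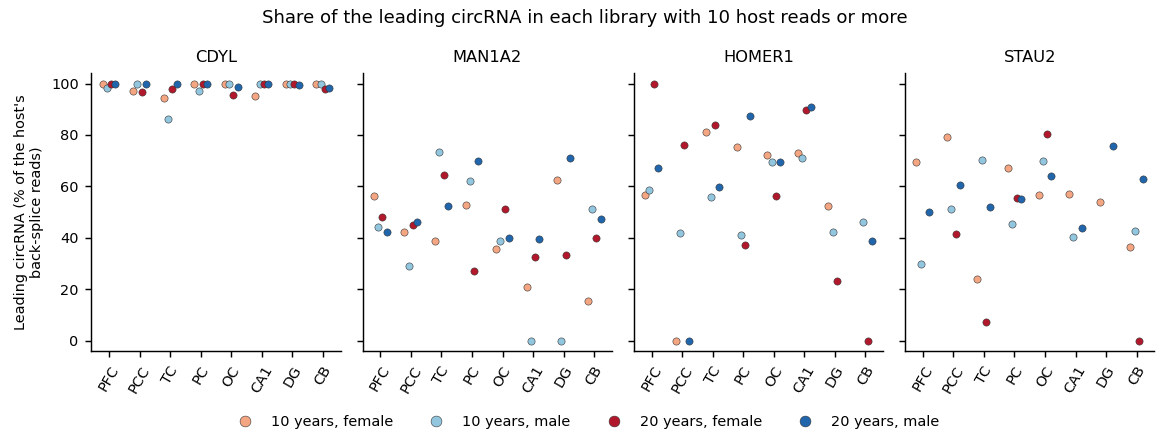
Leading circRNA as a percentage of its host's back-splice reads in each library with at least 10 host reads, by region, coloured by age and sex of the pool. CDYL lies at 86.2% or more throughout, whereas MAN1A2, HOMER1 and STAU2 spread from 0 to 73.3%, 100% and 80.4%.

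Other genes known as sources of brain circRNAs were run through the same fit for comparison. Of 19 such hosts, 18 had circRNAs in the table and 16 were tested. In CB, where 5.25% of all hosts passed, 3 of the 16 were higher and 0 lower. They were RIMS1, a protein of the presynaptic active zone, SMARCA5, a chromatin remodeller, and PHF21A, a subunit of a histone demethylase complex. RIMS1 was at 11350 ± 1732 TPM in CB against 1598 ± 1007 TPM elsewhere, a log2 difference of 3.07. In PFC, where 0.306% of all hosts passed, 1 was lower (RIMS1), and in DG, where 1.1% did, 1 was lower (SMARCA5). In the other 5 regions and by age or sex 0 passed.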

How the data were processed

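RNA of 8 brain regions from pools of 2 rhesus macaques was depleted of poly(A) RNA and ribosomal RNA, digested with RNase R and sequenced as paired reads. Per the labels and the study's methods, the authors trimmed reads with Cutadapt, aligned them with BWA and called circRNAs with CIRI2, requiring 2 junction reads. The genome build was not given in the sources used here. The deposited table holds 52828 circRNAs in 32 libraries as TPM, which the authors say were divided by size factors. Each value above 0 is a whole number of back-splice reads times 1 constant per library (99.988% of 197702 values, tolerance 0.0051 TPM), the smallest being 2 reads. That constant times a median-of-ratios size factor ran from 0.645 to 2.51 over libraries, where division by such factors would give 1 value, so the scale of the deposited values is not fully explained. Reads were recovered from these steps for filters, shares and depths. The values are not counts as deposited, so a count test with edgeR was not run.

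Members were taken by gene symbol, and those of ANKRD17 by gene ID. All members, lists and rules were chosen with earlier results of these data known. Named with values are each host's leading circRNA, the second where it held 20% or more of the host's reads, those the study names by position, and any called; others are said to be named after their values were seen. The study's filter was applied to recovered reads (at least 3 reads for a circRNA to count as expressed; expressed in 2 or more libraries of 2 or more areas, in 6 or more libraries, or with 30 or more reads in all).

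Tests used limma 3.58.1 in R 4.3.3 on log2(TPM + 2.455), with Benjamini-Hochberg adjustment over all 17050 circRNAs or 4895 hosts. Fold changes on that scale understate those of rare circRNAs. Regions were compared with the mean of the other 7; age and sex were fitted with region. Exact two-sided permutation tests (4 against 28 libraries) and two-sided t-tests were run on TPM in SciPy 1.17.1. Libraries with the same age and sex share animals in all regions, so the labels pair them by pool; the median correlation of same-pool deviations was 0.0266, and 0 of 112 pairs exceeded 0.1. The main fits of the CB difference and of age, and that of the leading circRNA's share in CB, were tested on simulated data. The simulated libraries held no pool effect, and the other fits were not tested in this way. For levels in CB and by age, large changes were planted, and only in the more abundant circRNAs and hosts. Smaller changes and rarer circRNAs were thus not covered. Shares have exact binomial 95% intervals.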

Additional observations from a re-analysis of the deposited data

Results flagged for a closer look

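In each region the 4 libraries' summed levels of each host were screened for a library far from the other 3 (Dixon's ratio). Of 67 groups with any spread, 19 were marked. The cutoff marks about 1 in 20 groups of normally distributed values, and TPM with many values at 0 are not such values. The 19 therefore cannot be set against that rate. In 12 of them the other 3 libraries were at 0, which marks a group whatever the level of the fourth. Causes were not tested.

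Among abundant hosts, CDYL was at 1502 TPM in PCC 20F, with the other 3 libraries between 311 and 336 TPM. MAN1A2 was at 328 TPM in PCC 20M against 230 to 233 TPM, and at 77.2 TPM in TC 10M against 367 to 400 TPM. The same library, TC 10M, held STAU2 at 242 TPM against 113 to 132 TPM.

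CSNK1G3 stood apart in PC 20M (105 TPM, others 0 to 13.6), CB 10F (131 TPM, others 16.5 to 20.6) and DG 20M (34.3 TPM, others 0). Its value in CB 10F was 7 reads in the shallowest library. TULP4 was at 5.62 TPM in PCC 10F and 9.8 TPM in CA1 20M with the others at 0. ANKRD17 was at 30.7 TPM in TC 20F and 20.9 TPM in CA1 20F with the others at 0.

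RTN4 was seen in 1 library only in PFC (20M, 3.02 TPM), PCC (20F, 21.4 TPM), CA1 (20M, 22.8 TPM) and CB (20M, 4.4 TPM). HIPK2 was seen in 1 library only in PFC (20M, 2.02 TPM), TC (20M, 2.9 TPM) and CB (20F, 6.52 TPM), and in CA1 10F it was at 21.3 TPM against 0 to 2.88 TPM.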

How the results depend on the processing

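Counts of members called were recomputed 114 times over the alternatives, and 99 did not move. Region calls of circRNAs, 0 as reported, became 1 with no filter (TULP4, CB, where 0.981% of all circRNAs passed), 1 without the 5 libraries with over 95% clean reads (RTN4, PC, 1.45% of all), 1 with voom (MAN1A2, PC, 0.727% of all) and 4 with the exact test. Region calls of hosts, 0 as reported, became 1 at the same total per library (MAN1A2, CB, 5.09% of all hosts), 1 among features above 0 in at least 16 libraries (HOMER1, DG, 2.43% of all), 1 without those 5 libraries (TULP4, CB, 5.78% of all), 3 with voom (MAN1A2 in PFC, CDYL and TULP4 in PCC, 2.08% and 1.76% of all) and 2 with the exact test. The t-test gave 1 circRNA for age, 1 for sex and 1 host for age. Taking the pool as a replicate block called 1 host by region (HOMER1, DG, 1.12% of all). For the age difference between sexes, a correlation within pools called 1 circRNA and 1 host, both of CSNK1G3 (0.152% of all circRNAs and 0.163% of all hosts). That correlation was estimated as negative, which narrows the standard error of this term. The block changed no other call. Leaving out each pool in turn gave 0 calls throughout. Host-level exact tests and t-tests, the fit without CB 10F and the alternatives of the age by sex term were chosen after seeing the data. Of 121 recomputed differences named for hosts, 0 changed sign. Over alternatives, HOMER1 by age ran from -1.18 to -0.87 (adjusted p 0.104 to 0.902), and CSNK1G3 from 3.30 to 8.12 (adjusted p 0.00679 to 0.738). Bringing libraries to the same total moved the median host in PFC from -0.02 to 0.12 and in OC from -0.04 to 0.14. Read depth limits the 5 rare hosts: 1 read is worth 0.288 to 18.7 TPM.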
